A study of Mus musculus with 8 samples.

Results

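The colony-stimulating factor receptors and ligands are described here by 7 genes, Csf1r, Csf1, Il34, Csf2ra, Csf2rb, Csf2rb2 and Csf3r, among the 54532 genes of the count table. The genes were found by Ensembl identifier and were chosen by the measured levels of Csf1r and Csf3r, whose means were lower in knock-in than in wild-type libraries; their own knock-in against wild-type values are given as a description, and where fits across all genes call or do not call them, those counts stand beside the share over all genes and nothing is read from them. Of the 7 genes, 6 passed the filter on low counts that left 17291 genes, and Il34 did not pass. The RNA came from microglia of the spinal cord, taken as living CD11b+, CD45low and Ly6C- cells by fluorescence-activated sorting. The 4 knock-in (KI) libraries came from female mice whose label reads Cd11b-P2X4mCherryIN KI (513, 526, 528 and 549), and the 4 wild-type (WT) libraries from female mice 503, 504, 506 and 527. P2X4 is a cation channel gated by extracellular ATP, CD11b is an integrin chain found on myeloid cells, and mCherry is a fluorescent tag; the knock-in label joins the names of all of these. The labels of these libraries name no age, treatment, disease or batch, and do not say in which cells the knocked-in channel is made. Each library came from its own mouse, so every error below is the spread between animals.

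Colony-stimulating factors control how many myeloid cells form, survive and mature. CSF1R is a receptor tyrosine kinase with CSF1 and IL-34 as its ligands, and microglia depend on it for survival; in the central nervous system its ligands come largely from cells other than microglia, IL-34 chiefly from neurons and CSF1 chiefly from glia. The GM-CSF receptor pairs the ligand-binding alpha chain CSF2RA with the common beta chain CSF2RB, which signals through the kinase JAK2 and is shared with the receptors of IL-3 and IL-5. Mice carry a further beta chain gene, Csf2rb2, whose product serves IL-3 alone. CSF3R is the receptor of G-CSF and is best known from neutrophils and their precursors.

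The libraries held 45167483 to 54049801 reads in KI and 47051510 to 53678232 in WT, and 3 reads, taken as the most that a count of 0 allows, corresponded to between 0.0555 and 0.0664 CPM (counts relative to library size). If both reads of every pair were counted, the limit would be 6 reads, or 0.111 to 0.133 CPM; it covers counting error only. Transcripts that define microglia were abundant: P2ry12, an ADP receptor, averaged 8855 ± 557 CPM in KI and 8669 ± 605 CPM in WT (SD, n = 4 each). Tmem119, a microglial membrane protein, averaged 2418 ± 408 CPM in KI and 3009 ± 265 CPM in WT, and its groups overlapped. Of 12 such markers, 7 had a log2 fold change (KI over WT) above 0 and 5 below 0. By edgeR's quasi-likelihood test 1 stood higher and 3 lower at an unadjusted p under 0.05, beside 3.23% and 4.56% of all tested genes. After adjustment 0 passed. Only C1qa lacked overlap, at 1448 ± 117 CPM in KI and 1638 ± 43.4 CPM in WT. Summed markers of 10 other cell types were compared by exact 2-sided permutation tests over the libraries, adjusted over 11 marker lists. None passed (exact permutation, adjusted p of at least 0.943). The smallest p that 70 assignments can give is 0.0286, so a single list on its own could not have passed that adjustment. The lowest unadjusted value was for monocytes, at 34.4 ± 11.1 CPM in KI and 23.8 ± 5.17 CPM in WT (exact permutation p = 0.0857). That sum mostly follows a single gene, Ms4a4c, at 22.98 CPM in KI and 15.84 CPM in WT. Of the 10 monocyte markers, 6 averaged under 1 CPM. Of the 5 that passed the filter, 4 had a log2 fold change above 0 and 1 below 0. In a bulk library, fewer cells of a type and less RNA per cell cannot be told apart.

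The promoter sequences of Csf3r, Csf2ra and Csf2rb2 are shown because Csf3r and Csf2ra did not overlap between the groups, while Csf2rb2 had nearly equal means. They come from RefSeq on GRCm38.p6 and run from 250 bases before the start to 50 after it, 5′ to 3′ on the strand of the gene; of the 7 genes, Csf1, Csf2ra, Csf2rb2 and Csf3r matched an entry. Csf3r stands at chr4:126024409-126024708 on the plus strand, Csf2ra at chr19:61228369-61228668 on the minus strand and Csf2rb2 at chr15:78305672-78305971 on the minus strand. Capitals mark GAGGAA, the core that the myeloid transcription factor PU.1 (Spi1) is known to bind, or its reverse complement.
Csf3r: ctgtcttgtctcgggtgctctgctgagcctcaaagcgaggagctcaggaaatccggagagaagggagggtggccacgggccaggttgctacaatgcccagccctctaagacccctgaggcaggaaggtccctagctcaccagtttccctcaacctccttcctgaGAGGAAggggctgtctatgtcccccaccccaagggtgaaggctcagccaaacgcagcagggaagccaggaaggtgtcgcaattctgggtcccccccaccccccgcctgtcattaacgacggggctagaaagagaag
Csf2ra: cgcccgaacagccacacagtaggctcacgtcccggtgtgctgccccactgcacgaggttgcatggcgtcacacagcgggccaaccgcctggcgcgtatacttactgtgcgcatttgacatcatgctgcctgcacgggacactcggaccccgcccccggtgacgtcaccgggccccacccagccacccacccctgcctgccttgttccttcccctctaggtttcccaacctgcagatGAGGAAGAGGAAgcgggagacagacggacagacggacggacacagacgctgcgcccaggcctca
Csf2rb2: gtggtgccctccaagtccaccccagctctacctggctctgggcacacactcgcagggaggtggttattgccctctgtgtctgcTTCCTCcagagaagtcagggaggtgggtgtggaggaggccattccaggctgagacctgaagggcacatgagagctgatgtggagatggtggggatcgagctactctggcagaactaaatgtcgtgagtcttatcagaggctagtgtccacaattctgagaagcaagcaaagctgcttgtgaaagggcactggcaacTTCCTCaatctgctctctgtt
GAGGAA was searched on both strands. Csf3r held 1 match, on the strand of the gene, whose first base lay at −86 from the RefSeq start. The gene model used for the counts of Csf3r starts further upstream, at chr4:126024550. That point lies within the sequence shown, so the match falls past the start of that model. Csf2ra held 2 adjoining matches at −14 and −8 on its own strand. Csf2rb2 held 2 on the opposite strand, at −167 and at 30 after the start, and Csf1 (chr3:107760420-107760719, minus strand) held 0. The same letters stood in 28.3% of 32851 promoters of this length. TTNNGNAA, a C/EBP type of motif searched on both strands, matched once in Csf2ra (−31) and at 9 and 30 in Csf2rb2, where the match at 30 overlaps GAGGAA; it stood in 40.7% of promoters. Whether any of these matches bears on the levels was not tested.

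Per length, Csf1r led the genes, Csf2ra, Csf3r and Csf2rb followed, and the receptor chain gene Csf2rb2 lay near the ligand gene Csf1. In FPKM, which is scaled to exon length and library total, Csf1r held 490.5, 440.1, 436.8 and 539.2 in KI 513, 526, 528 and 549, against 552.5, 601.6, 627.1 and 665.5 in WT 503, 504, 506 and 527. It ranked between 76 and 94 among all genes with a read in KI libraries and between 57 and 71 in WT libraries. Csf2ra and Csf3r came next at 67.0 to 79.4 and 65.6 to 74.8 FPKM in KI and at 79.8 to 87.8 and 76.6 to 97.0 FPKM in WT. Csf2rb stood at 19.1 to 23.5 FPKM in KI and 17.6 to 19.8 FPKM in WT. The lowest detected genes were Csf2rb2, at 2.80 to 4.61 FPKM in KI and 3.72 to 3.83 FPKM in WT, and the ligand gene Csf1, at 2.52 to 3.95 FPKM in KI and 2.27 to 3.54 FPKM in WT.

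**Figure D1:**
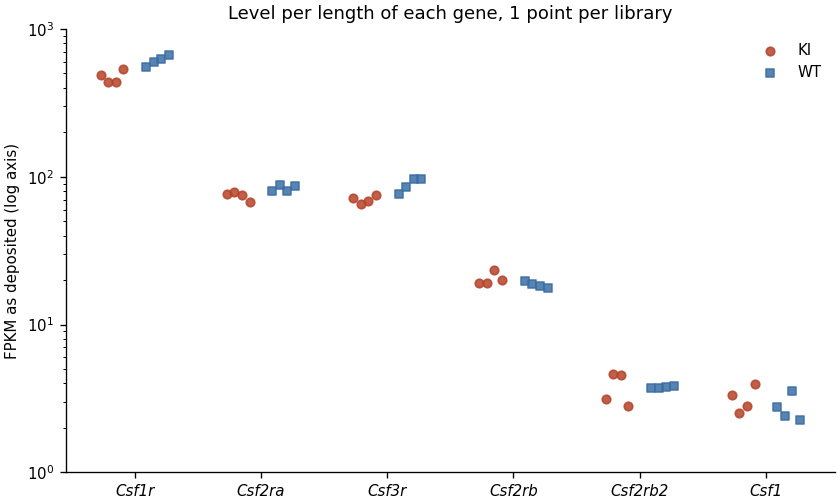
Level of 6 of the 7 genes in FPKM on a log axis, 1 point per library, with KI circles left of WT squares for each gene. Csf1r stands at 436.8 FPKM or more in all 8 libraries, Csf2ra and Csf3r share a range, and Csf2rb2 and Csf1 lie at 4.61 FPKM or less.

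The order was tested across all 8 libraries. The choice of genes used the same libraries, but it compared the genotypes and not the levels between genes. The order itself was taken from the mean levels in these libraries. The direction of each mean difference was thus set beforehand, and the p-values below make no allowance for that. Neighbours were compared as paired differences of log2(FPKM + 0.1) by an exact 2-sided sign-flip test, whose smallest p is 0.00781, with adjustment over 6 pairs. Csf1r exceeded Csf2ra by 2.77 ± 0.20 (mean difference on the log2 scale ± SD, n = 8), Csf3r exceeded Csf2rb by 2.01 ± 0.31, and Csf2rb exceeded Csf2rb2 by 2.35 ± 0.24 (exact adjusted p = 0.0117 each, in this order in 8 of 8 libraries). Csf1 also stood above Il34 in 8 of 8 libraries, but with Il34 at or under 3 reads the size of that difference follows the pseudocount (1.95 at 1, 7.42 at 0.01) and is not given as a result. Csf2ra and Csf3r differed by 0.0058 ± 0.18 (exact adjusted p = 0.938), with Csf2ra the higher in 3 of 4 KI and 2 of 4 WT libraries. Csf2rb2 exceeded Csf1 by 0.35 ± 0.47 (exact adjusted p = 0.0844), in 2 of 4 KI and 4 of 4 WT libraries. Without KI 549, which held the lowest Csf2rb2 and the highest Csf1 of the KI libraries, that difference was 0.47 (exact adjusted p = 0.0375). These 2 pairs of neighbours therefore did not separate beyond their spread with all libraries in.

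The ligands of CSF1R were low or near the limit of detection. Csf1 (ENSMUSG00000014599, mm10 chr3:107741048-107760469, minus strand, 12 exon blocks) encodes the secreted and membrane-bound growth factor CSF1. After scaling of the libraries by TMM (trimmed mean of M values), it was read at 17.2, 12.5, 14.8 and 20.2 CPM in KI 513, 526, 528 and 549, against 13.8, 12.3, 17.9 and 11.6 CPM in WT 503, 504, 506 and 527. The groups overlapped, and means were 16.2 ± 3.30 CPM in KI and 13.9 ± 2.81 CPM in WT (SD, n = 4 each; log2 fold change KI over WT 0.22, SE 0.20, 95% interval −0.22 to 0.66). Without KI 549 the log2 fold change was 0.093, and without WT 506, the highest WT library, it was 0.36.

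Il34 (ENSMUSG00000031750, chr8:110741829-110805924, minus strand, 9 exon blocks) encodes the other ligand. It held 2, 0, 1 and 0 reads in KI 513, 526, 528 and 549 and 1, 0, 0 and 3 reads in WT 503, 504, 506 and 527. All 8 libraries were thus at or under the 3-read limit, and no fold is given. Its exons also share 97 bases with antisense gene models on the plus strand, of which Gm15895 held 0 to 10 reads, and without strand such reads cannot be told apart.

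Csf1r (ENSMUSG00000024621, chr18:61105572-61132149, plus strand, 22 exon blocks) was lower in every KI library than in any WT library. It held 2325, 2015, 2120 and 2539 CPM in KI 513, 526, 528 and 549, against 2551, 2854, 2921 and 3137 CPM in WT 503, 504, 506 and 527. The gap between the groups was small, 2539 CPM in KI 549 against 2551 CPM in WT 503. Means were 2250 ± 232 CPM in KI and 2866 ± 242 CPM in WT (SD, n = 4 each; log2 fold change −0.35, SE 0.083, 95% interval −0.53 to −0.16), a mean of KI that was lower by 21.5% (percent change −21.5). As a share of all reads, Csf1r took 0.205% to 0.253% in KI and 0.260% to 0.313% in WT. The gene shares 871 of its exon bases (17.8%) with Hmgxb3, a protein-coding gene on the other strand that held 623 to 997 reads; reads in those bases cannot be assigned by strand.

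Csf3r (ENSMUSG00000028859, chr4:126024550-126044440, plus strand, 17 exon blocks) showed the same arrangement. It held 247.5, 218.7, 242.3 and 256.4 CPM in KI 513, 526, 528 and 549, against 257.7, 293.1, 326.7 and 333.0 CPM in WT 503, 504, 506 and 527. Again KI 549 and WT 503 nearly met, at 256.4 CPM in KI 549 and 257.7 CPM in WT 503. Means were 241 ± 16.1 CPM in KI and 303 ± 34.7 CPM in WT (SD, n = 4 each; log2 fold change −0.33, SE 0.089, 95% interval −0.53 to −0.13; percent change −20.3). Csf3r is known from neutrophils, and the 14 summed neutrophil markers stood at 18.5, 1.85, 61.8 and 1.08 CPM in KI 513, 526, 528 and 549, against 0.897, 20.6, 2.28 and 1.73 CPM in WT 503, 504, 506 and 527. Of the 14 markers, 9 averaged under 1 CPM over the 8 libraries. Ngp, a granule protein gene, led the sum, at 9.38, 0.0754, 27.3 and 0 CPM in KI 513, 526, 528 and 549 and at 0.275, 11.9, 0.121 and 0 CPM in WT 503, 504, 506 and 527. S100a8 reached 9.99 CPM and Camp 7.70 CPM in KI 528, while the surface marker gene Ly6g did not exceed 0.0429 CPM in any library. The log2 fold change of Csf3r was −0.33 without KI 528, −0.34 without KI 513 and −0.34 without WT 504, the libraries with the highest neutrophil sums, and the part of neutrophils in its level was not tested.

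**Figure D2:**
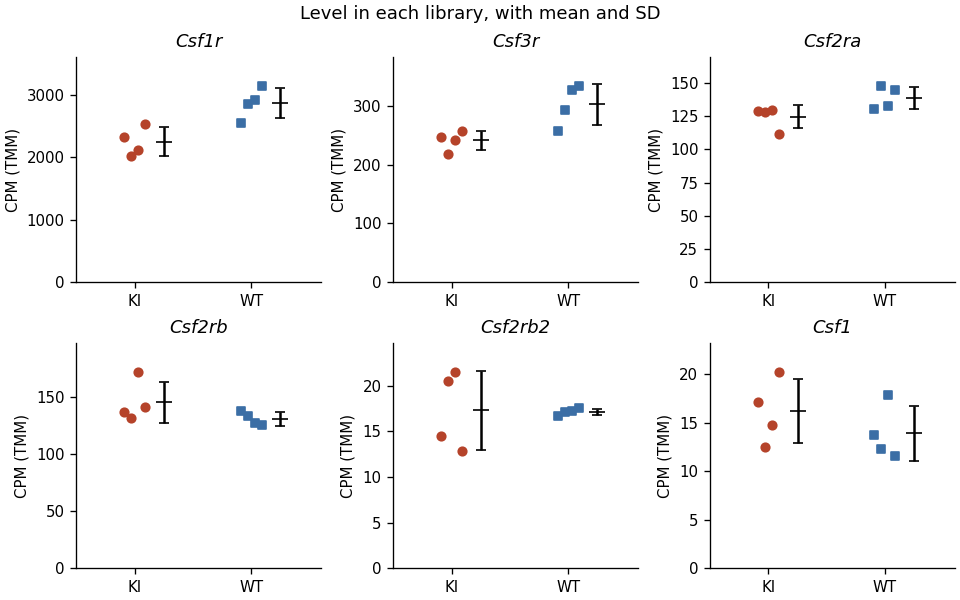
CPM after TMM scaling of 6 genes in each library, KI circles left of WT squares, with a bar at the mean and whiskers of 1 SD; each axis starts at 0. In the panels of Csf1r, Csf3r and Csf2ra every KI point lies below every WT point, and in those of Csf2rb, Csf2rb2 and Csf1 the groups overlap.

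The GM-CSF receptor chain genes Csf2ra and Csf2rb had log2 fold changes of opposite sign, each with a 95% interval that includes 0. Csf2ra (ENSMUSG00000059326, chr19:61224402-61228418, minus strand, 12 exon blocks), the ligand-binding alpha chain, held 128.9, 128.5, 130.0 and 111.6 CPM in KI 513, 526, 528 and 549, against 130.4, 147.4, 132.3 and 144.7 CPM in WT 503, 504, 506 and 527. The groups did not overlap, though 3 KI libraries lay within 2 CPM of the lowest WT library. Means were 125 ± 8.78 CPM in KI and 139 ± 8.60 CPM in WT (SD, n = 4 each; log2 fold change −0.15, SE 0.077, 95% interval −0.32 to 0.019).

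Csf2rb (ENSMUSG00000071713, chr15:78325752-78353847, plus strand, 17 exon blocks), the common beta chain, held 137.2, 131.7, 172.0 and 141.5 CPM in KI 513, 526, 528 and 549, against 137.9, 133.9, 127.3 and 125.5 CPM in WT 503, 504, 506 and 527. The groups overlapped and KI 528 was the highest library. Means were 146 ± 18.04 CPM in KI and 131 ± 5.77 CPM in WT (SD, n = 4 each; log2 fold change 0.15, SE 0.090, 95% interval −0.050 to 0.35), and without KI 528 the log2 fold change was 0.061. KI 528 also held the most transcripts of several other leukocytes: summed markers were at 61.8 CPM for neutrophils, 50.9 CPM for monocytes, 25.3 CPM for border-associated macrophages, 6.50 CPM for mast cells and basophils and 3.95 CPM for lymphocytes. Ms4a4c alone gave 28.87 of the 50.9 CPM of the monocyte sum in KI 528. In the other 7 libraries the monocyte sum ran from 27.0 to 30.9 CPM in KI and from 16.8 to 29.1 CPM in WT. The part of these leukocytes in the Csf2rb value was not tested.

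Csf2rb2 (ENSMUSG00000071714, chr15:78282507-78305721, minus strand, 14 exon blocks), the IL-3 beta chain and the neighbour of Csf2rb, had nearly equal means and unequal spread. It held 14.5, 20.5, 21.4 and 12.8 CPM in KI 513, 526, 528 and 549, against 16.6, 17.1, 17.2 and 17.5 CPM in WT 503, 504, 506 and 527. The KI libraries lay on either side of the WT range, with a coefficient of variation of 24.9% in KI and 2.16% in WT; that difference in spread was not tested. Means were 17.3 ± 4.31 CPM in KI and 17.1 ± 0.369 CPM in WT (SD, n = 4 each; log2 fold change 0.014, SE 0.18, 95% interval −0.39 to 0.42). Without KI 528 the log2 fold change was −0.11, and without KI 549 it was 0.13.

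The beta chain genes are close copies, so their separate counts are uncertain. Their longest coding transcripts, 4900 bases for Csf2rb and 4740 for Csf2rb2, were 91.0% identical over 4622 aligned bases. Of the 50-base windows of the Csf2rb2 transcript 19.015% also stood in that of Csf2rb, and of the 100-base windows 7.20%. Of the reads on both genes, Csf2rb2 took 8.29% to 13.45% in KI and 10.8% to 12.25% in WT. Their summed level, to which a read assigned to the wrong copy makes no difference, was 151.6, 152.1, 193.4 and 154.2 CPM in KI 513, 526, 528 and 549 and 154.5, 151.1, 144.5 and 143.0 CPM in WT 503, 504, 506 and 527. The sum overlapped between the groups and was again highest in KI 528.

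Ratios within a library set the genes against each other without the scaling of the library. The ratio of Csf1r to Csf3r in FPKM was 6.84, 6.71, 6.37 and 7.21 in KI 513, 526, 528 and 549 and 7.21, 7.09, 6.51 and 6.86 in WT 503, 504, 506 and 527 (mean 6.78 ± 0.348 in KI and 6.92 ± 0.308 in WT). It varied 1.13-fold over the 8 libraries, where Csf1r alone varied 1.52-fold and Csf3r alone 1.48-fold, so the receptor genes kept nearly the same proportion in all libraries. Both genes were chosen as lower in KI, and that choice favours a like proportion in KI and WT. The ratio of the receptor gene Csf1r to its ligand gene Csf1 was 153 ± 16.3 in KI and 230.5 ± 51.7 in WT. The highest KI library (174.9) lay under the lowest WT library (177.0). As Csf1r was chosen for its lower level in KI, this separation partly restates the choice, and nothing is read from it. The ratio of the alpha chain gene Csf2ra to the beta chain gene Csf2rb was 3.69 ± 0.463 in KI and 4.52 ± 0.380 in WT and overlapped.

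**Figure D3:**
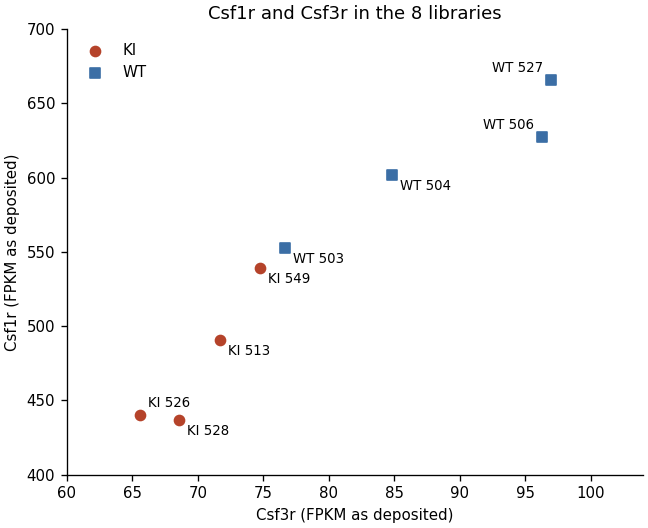
FPKM of Csf1r (vertical axis) against FPKM of Csf3r (horizontal axis), 1 point per library, KI circles and WT squares labelled with the number of the mouse; neither axis starts at 0. Libraries with more Csf3r mostly held more Csf1r, from the KI libraries at 65.6 to 74.8 FPKM of Csf3r to the WT libraries at 76.6 to 97.0 FPKM, with KI 549 and WT 503 next to each other.

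Over the 8 libraries, log2 CPM of Csf1r and Csf3r correlated with a Pearson r of 0.956, and 0.873 after each was centred on its group means. These points share their libraries with the genotype contrast that chose the genes, and both genes have a GC content above that of most genes, so the correlation is a description with no p. Csf3r ranked 19th in likeness to Csf1r among the 9038 genes that had a symbol and averaged 5 CPM or more. The 5 genes most like Csf1r were Adgrg1, an adhesion G protein-coupled receptor (r = 0.988, centred 0.963), Il6ra, the alpha chain of the IL-6 receptor (0.984, centred 0.948), Slc2a5, the fructose transporter (0.983, centred 0.970), Slco2b1, an organic anion transporter (0.974, centred 0.961), and Pkig, an inhibitor of protein kinase A (0.970, centred 0.912). Csf1r, Csf3r and Il6ra placed the 8 libraries in the same order of CPM (Spearman rho 1.0 for each with Csf1r). Il6ra averaged 339.7 ± 45.1 CPM in KI and 451 ± 34.3 CPM in WT (SD, n = 4 each). That its groups did not overlap follows from the order it shares with Csf1r, and nothing further is read from it. Most like Csf3r were Pold2, a subunit of DNA polymerase delta (r = 0.984, centred 0.961), Rasal3, a GTPase-activating protein of haematopoietic cells (0.970, centred 0.972), Arih2, a ubiquitin ligase (0.957, centred 0.916), Csf1r itself and Zfp385a, a zinc finger protein (0.955, centred 0.914).

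The other receptor and ligand genes ranked lower in likeness to Csf1r. Csf2ra ranked 1753rd (r = 0.47, centred −0.22, Spearman rho 0.76), Csf1 5071st (−0.091, centred 0.47, rho −0.24), Csf2rb2 6650th (−0.34, centred −0.67, rho −0.17) and Csf2rb 7938th (−0.59, centred −0.29, rho −0.57). Csf1 and Csf2ra ran in opposite directions over the libraries (r = −0.78, centred −0.75), as did Csf1 and Csf2rb2 (−0.63, centred −0.67). KI 549 had the most Csf1 and the least Csf2ra and Csf2rb2 of the 8 libraries.

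By edgeR's quasi-likelihood test with Benjamini-Hochberg adjustment, 0 of 17291 genes were called between KI and WT (0.0%), among them 0 of the 6 genes tested here. At an unadjusted p under 0.05 stood 1347 genes (7.79%): 788 lower in KI (4.56%), Csf1r and Csf3r among them, and 559 higher in KI (3.23%), with 0 of the 6. DESeq2 called 139 genes (0.804%), 106 lower in KI (0.613%) and 33 higher (0.191%), and 1 of the 6, Csf1r, was among the lower. Run on all 37254 genes with a read it called 233, which is 1.11% of the 21012 genes counted as tested in that run. Of the 6 it then called 0. The likelihood ratio test of edgeR called 42 genes (0.243%) and limma-voom 0 (0.0%), in both cases 0 of the 6. Of 10171 genes that averaged 5 CPM or more, 615 had groups without overlap (6.05%): 302 were lower in KI (2.97%), Csf1r, Csf3r and Csf2ra among them, and 313 higher in KI (3.08%), with 0 of the 6. These counts restate the contrast from which the genes were chosen, and nothing is read from them.

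All 6 tested genes have a GC content above that of most tested genes (from 74.7% of genes with a lower value, for Csf2rb2, to 92.6%, for Csf2ra), and the libraries differed in how level ran with GC content. The slope of a library on GC content was −0.051 ± 0.070 in KI and 0.051 ± 0.049 in WT (log2 per 10 points, SD, n = 4 each; exact permutation p = 0.0571, adjusted 0.143 over 5 library measures), with overlap at KI 549 (0.049) and WT 504 (−0.019). The slope on exon length was −0.036 ± 0.037 in KI and 0.036 ± 0.027 in WT (log2 per 10-fold, exact permutation p = 0.0286, the smallest that 70 assignments can give, adjusted 0.143), with no overlap. With both trends removed, the log2 fold change was −0.22 for Csf1r and −0.21 for Csf3r, and the groups of both overlapped: Csf1r then stood at 2443, 2178, 2294 and 2495 CPM in KI 513, 526, 528 and 549 and at 2456, 2879, 2713 and 2879 CPM in WT 503, 504, 506 and 527. Csf2ra moved to −0.036, Csf2rb to 0.28, with every KI library above every WT library, Csf2rb2 to 0.14 and Csf1 to 0.35. The removal lifted all 6 values, each by 0.12 to 0.13, while the median over all tested genes was 0.029 after the removal and 0.00053 before it.

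**Figure D4:**
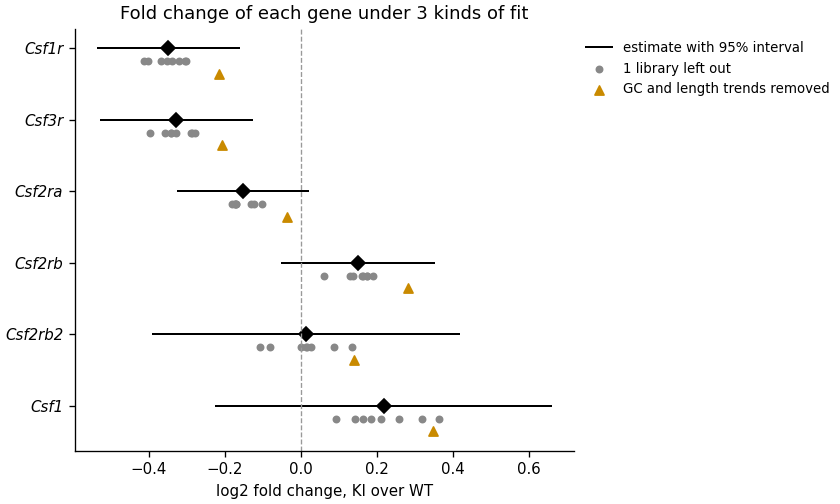
Log2 fold change, KI over WT, of 6 genes: diamonds with the 95% interval of the edgeR fit, grey dots for the fits with 1 library left out and triangles for the fit with GC and length trends removed. The values of Csf1r and Csf3r stay below 0 in all of these fits, those of Csf2rb2 lie on either side of 0, and each triangle lies to the right of its diamond.

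The genes around these receptors were described by 5 lists with 98 genes in all, 89 of them tested. By edgeR's quasi-likelihood test 0 passed in either direction after adjustment over all genes; 32 had a log2 fold change above 0 and 57 below 0, with a median of −0.076, against 49.9% below 0 and a median of 0.00053 over all tested genes. Of the signalling genes downstream of CSF1R, 28 of 35 were below 0 and the median was −0.16, and at an unadjusted p under 0.05 stood 1 higher and 10 lower, beside 3.23% of all tested genes higher and 4.56% lower. With 1 library left out this median ran from −0.19 to −0.12, and after removal of the GC and length trends it was −0.074 with 23 of 35 below 0. Pik3ap1, an adaptor of phosphoinositide 3-kinase, averaged 60.6 ± 15.1 CPM in KI and 92.6 ± 14.1 CPM in WT (log2 fold change −0.61, edgeR adjusted p = 0.507, DESeq2 adjusted p = 0.0339), and KI 549 lay apart at 83.1 CPM. Cblb, a ubiquitin ligase that ends receptor signalling, averaged 13.4 ± 4.61 CPM in KI and 23.9 ± 2.32 CPM in WT with no overlap (−0.83, edgeR adjusted p = 0.507, DESeq2 adjusted p = 0.0293). Mapk3, the kinase ERK1, averaged 26.8 ± 0.901 CPM in KI and 34.3 ± 2.95 CPM in WT with no overlap (−0.35, edgeR adjusted p = 0.533). Gsk3b, a kinase that the AKT pathway inhibits, had the opposite sign, at 303 ± 15.8 CPM in KI and 262 ± 12.6 CPM in WT with no overlap (0.21, edgeR adjusted p = 0.533).

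Genes that cut, degrade or recycle the receptor showed smaller differences: 9 of 12 were below 0, with a median of −0.072, but with the GC and length trends removed 5 of 12 were below 0 and the median turned to 0.019. Adam10, a membrane protease, had a log2 fold change of −0.076 (edgeR adjusted p = 0.868), and the gamma-secretase subunits Ncstn and Psenen of −0.068 and 0.082 (edgeR adjusted p = 0.903 and 0.902).

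Of the transcription factors known to act on Csf1r or in the same lineage, 10 of 17 tested were below 0 and the median was −0.030, but with the GC and length trends removed 7 of 17 were below 0 and the median turned to 0.019. At an unadjusted p under 0.05 stood 0 higher and 1 lower, Spi1 (3.23% and 4.56% over all tested genes). Spi1, which encodes PU.1, a factor that Csf1r transcription is known to need, averaged 225 ± 26.5 CPM in KI and 305 ± 25.1 CPM in WT. Its libraries stood at 232.8, 236.9, 245.3 and 186.4 CPM in KI 513, 526, 528 and 549 and at 269.0, 318.2, 309.9 and 324.7 CPM in WT 503, 504, 506 and 527. The groups did not overlap and the log2 fold change was −0.44 (SE 0.096, edgeR adjusted p = 0.507), while DESeq2 called it (adjusted p = 0.00937). With the GC and length trends removed it was −0.27 and the groups overlapped. KI 549, the KI library with the most Csf1r, had the least Spi1. The part of Spi1 in the Csf1r values was not tested. Sall1, which marks microglial identity, averaged 261 ± 24.1 CPM in KI and 288 ± 19.5 CPM in WT (−0.14, edgeR adjusted p = 0.724), and the activation-linked factors Ets2 and Junb had log2 fold changes of −0.37 and −0.40 with wide intervals (−1.03 to 0.29 and −1.25 to 0.44). Genes of the immediate early and stress response, known to be induced when tissue is dissociated, summed to 15450, 6700, 14360 and 13210 CPM in KI 513, 526, 528 and 549 and to 10560, 6663, 15010 and 11770 CPM in WT 503, 504, 506 and 527, so KI 526 and WT 504 were the low libraries; their part in the values of Ets2 and Junb was not tested.

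**Figure D5:**
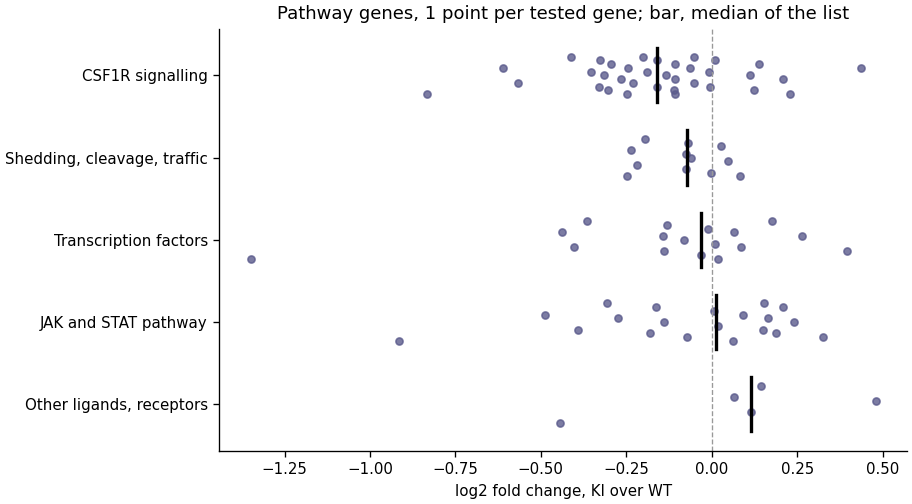
Log2 fold change, KI over WT, of the tested genes of 5 pathway lists, 1 point per gene, with a bar at the median of each list. The medians are −0.16, −0.072, −0.030, 0.012 and 0.11 from the top list to the bottom list; with the GC and length trends removed the medians of −0.072 and −0.030 turn to 0.019 each, and points lie on either side of 0 in every list.

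The JAK and STAT genes that act below the cytokine receptors CSF2R and CSF3R were spread evenly, with 11 of 20 tested above 0 and a median of 0.012 that ran from −0.097 (without WT 504) to 0.092 (trends removed) over the alternatives. At an unadjusted p under 0.05 stood 2 higher and 2 lower (3.23% and 4.56% over all tested genes). Pias1 and Pias3, SUMO ligases that restrain STAT proteins, had opposite signs: Pias1 averaged 612 ± 23.0 CPM in KI and 518 ± 15.8 CPM in WT (log2 fold change 0.24, edgeR adjusted p = 0.507), and Pias3 10.8 ± 1.29 CPM in KI and 20.4 ± 1.95 CPM in WT (−0.92, edgeR adjusted p = 0.24). Neither overlapped between the groups, and DESeq2 called both (adjusted p = 0.00847 and 7.22e-06). Mcl1, a survival factor of the BCL2 family, averaged 492 ± 38.6 CPM in KI and 432 ± 41.4 CPM in WT (0.19, edgeR adjusted p = 0.626), and Sh2b2, an adaptor that binds JAK2, 22.5 ± 2.89 CPM in KI and 31.6 ± 3.69 CPM in WT with no overlap (−0.49, edgeR adjusted p = 0.508). Ligands and receptors of the wider family were mostly at or near 0, with 5 of 12 genes tested, 4 of them above 0, and a median log2 fold change of 0.11 (−0.065 without WT 527). The cytokine genes Csf2, Csf3, Il3 and Il5 did not exceed 0.0915 CPM in any library, and Il3ra, the partner of the beta chains for IL-3, averaged 2.15 ± 0.237 CPM in KI and 1.54 ± 0.439 CPM in WT. Kitl, the ligand of the receptor KIT, was the single gene of that list above 5 CPM, at 97.96 ± 1.998 CPM in KI and 93.7 ± 4.47 CPM in WT (log2 fold change 0.065, edgeR adjusted p = 0.889).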

How the data were processed

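RNA sequencing libraries of spinal cord microglia from 4 KI and 4 WT female mice, 1 per mouse, were compared. Per the labels' protocols, cords were dissociated mechanically, cleared on Percoll and sorted, before a low-input NEBNext library preparation. The tools, per the submitters' processing notes, were featureCounts 2.0.3, STAR 2.7.5c, SAMtools 1.9, limma, edgeR and R 3.6.0, on build mm10. Per the file headers, the deposited counts came from featureCounts over exons, with primary alignments, neither strand nor fragment counting set; 68.9% to 70.8% of each library's counts between 1 and 9 were even, so a pair can count as 2 reads. The authors also deposited FPKM values, and no source used here names their tool. A further 8 columns were not used here. Gene symbols came from GENCODE for 54409 of 54532 identifiers.

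The counts were tested by edgeR 4.0.16 under R 4.3.3: TMM scaling, filterByExpr (minimum count 10, minimum total 15), and the robust quasi-likelihood test with group as the only term; an adjusted p under 0.05 over all tested genes counted as a call. The steps were tested on simulated data. DESeq2 1.42.0, limma 3.58.1 (voom, and log2(FPKM + 0.1)), other scalings, removal of GC and length trends and leaving out each library were alternatives. FPKM with a pseudocount of 0.1 gave the order of the genes, and likeness used log2(CPM + 0.5). The counts of every pair of libraries differed beyond sampling noise (chi-square over degrees of freedom 28.4 to 66.2). The genes, the lists and the tests were chosen with earlier results of these data known. Named genes were the 7 genes, up to 4 of each pathway list with the smallest unadjusted p among those with a mean of at least 5 CPM, and the 5 most like Csf1r and Csf3r; Il3ra and the cytokine genes near 0 were named after their values were seen. Some genes that this rule selects are not reported here.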

Additional observations from a re-analysis of the deposited data

Results flagged for a closer look

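A library that stood apart from the other 3 of its group by Dixon's criterion was found in 11 of 78 groups of values tested, where chance gives about 1 in 20. Csf2ra was at 111.6 CPM in KI 549, against 128.5 to 130.0 CPM in the other KI libraries, and Pik3ap1 at 83.1 CPM in KI 549, against 50.3 to 54.8 CPM. Mcl1 stood at 549.5 CPM in KI 528 (the others at 466.5 to 480.4 CPM) and at 493.6 CPM in WT 503 (404.7 to 418.3 CPM). Pias3 was at 17.5 CPM in WT 506, against 21.4 to 21.5 CPM in the other WT libraries. Summed markers of other cells stood apart in KI 528 for monocytes (50.9 CPM), mast cells and basophils (6.50 CPM) and lymphocytes (3.95 CPM), in KI 549 for astrocytes (321 CPM, lower than the others) and in WT 504 for neutrophils (20.6 CPM). Slc1a3 alone gave 301.7 of the 321 CPM of the astrocyte sum in KI 549, so that sum mostly follows a single gene. KI 526 held reads on 27800 genes, more than the other KI libraries.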

How the results depend on the processing

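No paired analysis was possible because the groups share no mouse number. The 0 calls over all genes and the 0 calls in the pathway lists became 139 and 5 with DESeq2, 233 and 6 with DESeq2 on all genes with a read (an alternative chosen after seeing the data, as were the GC and length trends removed singly), and 42 and 2 with the likelihood ratio test; limma on log2(FPKM + 1) called 1 gene and 0 in the lists, and each fit without 1 library called 0 and 0. Across 20 alternatives the log2 fold change ran from −0.41 to −0.22 for Csf1r, −0.40 to −0.21 for Csf3r, −0.18 to −0.0033 for Csf2ra, 0.061 to 0.28 for Csf2rb and 0.093 to 0.36 for Csf1, without a change of sign. Csf2rb2 ran from −0.11 to 0.14, with 6 values below 0. After removal of the GC and length trends, Ncstn (0.017) and Pkig (0.020) turned positive. Csf2ra over Csf3r was −0.071 on counts per kilobase and −0.033 to 0.044 without 1 library, and Csf2rb2 over Csf1 0.28 to 0.47. KI minus WT was −0.096 for astrocyte markers on the mean log2 scale, against 9.01 CPM summed. Slc1a3 alone held 340 of the 369 CPM of that sum in KI and 331 of the 360 CPM in WT. Without 1 library KI minus WT ran from −2307000 to 653400 for total reads and from −17.3 to 3339 CPM for immediate early and stress genes. The cause of these changes was not tested. At this depth Il34 cannot be compared, and the 95% intervals of Csf1 and Csf2rb2 leave both directions possible.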
